A study of Mus musculus with 15 samples.

Results

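Bcl3 and 9 genes of the NF-kappaB system were followed in cultured adult neural stem cells (aNSCs) of the mouse with or without Trrap, the cofactor through which several histone acetyltransferase (HAT) complexes are brought to chromatin. They are 10 of the 53801 genes in the count table. Bcl3 was chosen from its counts, since it was among the largest rises after 4-hydroxytamoxifen (4-OHT) treatment, and the other 9 were added for their roles. These are the 5 NF-kappaB subunits Nfkb1, Nfkb2, Rela, Relb and Rel, the inhibitors Nfkbia and Nfkbie, the nuclear IkB-like protein Nfkbiz, and the feedback gene Tnfaip3.

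All cultures came from mice of 2 months with the strain label C57BL6/J-129sv and carried the Rosa26-CreERT2 transgene, whose recombinase is made in most cell types and becomes active with 4-OHT. In 5 cultures from Trrap Fl/+ mice, which have 1 floxed and 1 wild-type copy of Trrap, no 4-OHT was given (Fl/+ untreated). A second culture of each of these 5 mice (19, 24, 26, 35 and 36) received 4-OHT for 5 days by the labels (Fl/+ 4-OHT). The third group was 5 cultures from Trrap Fl/Fl mice (27, 28, 29, 37 and 39), all treated with 4-OHT (Fl/Fl 4-OHT). Because 4-OHT also removes the floxed copy in Fl/+ cells, the drug, the activity of the recombinase and the loss of 1 Trrap copy cannot be told apart in the Fl/+ comparison, and no untreated Fl/Fl culture was analysed here.

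NF-kappaB is a family of transcription factors that act as pairs of subunits. RELA, RELB and REL carry their own activation domain, whereas the products of Nfkb1 and Nfkb2 (p50 and p52) do not and rely on a partner. In resting cells the pairs are held in the cytoplasm by IkB proteins such as IkBα (Nfkbia) and IkBε (Nfkbie), until an IkB kinase marks these for destruction. BCL3 and IkBζ (Nfkbiz) belong to the same family by sequence but work in the nucleus, where they bind p50 or p52 pairs and raise or lower transcription. A20 (Tnfaip3), together with newly made IkBα, switches the pathway off again. In neural stem cells the pathway is known to respond to cytokines and to take part in proliferation and in the formation of astrocytes.

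NF-kappaB pairs bind 10-base kB sites, and several of these genes are known targets of the pathway itself. RefSeq promoter windows of GRCm38.p6, running from 250 bases before to 50 bases after a start, were found for 7 of the 10 genes. The windows of 6 genes held a match to the classical kB consensus on either strand, and 8.46% of the 32851 windows of all genes held one. The match nearest a start is shown for each of the 6 genes, on the strand of the gene, with the match in capitals and 10 bases on each side in lower case.
Bcl3 (chr7:19822734-19822763, minus strand, match 2 bases after the start): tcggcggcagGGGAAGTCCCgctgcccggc
Nfkb2 (chr19:46305695-46305724, plus strand, 10 bases after a start): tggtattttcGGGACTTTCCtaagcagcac
Rel (chr11:23771041-23771070, minus strand, 91 bases before the start): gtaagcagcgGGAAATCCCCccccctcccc
Nfkbia (chr12:55492657-55492686, minus strand, 29 bases before the start): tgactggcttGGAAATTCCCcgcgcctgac
Nfkbie (chr17:45555584-45555613, plus strand, 106 bases before the start): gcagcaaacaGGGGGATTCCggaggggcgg
Tnfaip3 (chr10:19015403-19015432, minus strand, 12 bases before a start): aatttccatcGGAAATCCCCctgttggcaa
No kB match was found in the window of Rela, the most abundant of the subunits in these cultures. The letters GGGCGG, a GC box bound by Sp1, stood on either strand in the windows of all 7 genes, against 35.7% of all windows. The letters TGANTCA, bound by AP-1, stood in the windows of Nfkb2, Nfkbie and Tnfaip3 and in 7.81% of all windows. The letters TTCNNNGAA, bound by STAT factors, stood in a window of Nfkb2 and in 8.30% of all windows. None of these further matches shared a base with a kB match. Such matches describe the letters of a window and not a bound site.

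Each library held 25.7 to 32.2 M assigned counts, so that 3 counts, taken as the floor of detection, equalled 0.094 to 0.119 CPM (counts per unit of depth, scaled by TMM over the 15 libraries). Trrap stood at 176 to 210 CPM in Fl/+ untreated, at 141 to 202 CPM in Fl/+ 4-OHT and at 83.2 to 144 CPM in Fl/Fl 4-OHT cultures. The highest Fl/Fl culture, mouse 29, overlapped the Fl/+ 4-OHT group, and counts over the whole gene include exons outside the deleted part. The library of mouse 39, labelled female, held 9 counts of Xist and 1556 counts of the Y-linked Ddx3y, which goes against its label. The Fl/+ 4-OHT library of mouse 36, labelled male, held 2117 counts of Xist beside 1500 of Ddx3y. All 10 neural stem cell markers were above 1 CPM in each group, with sums of 8075 to 14003 CPM. Of 12 microglia and macrophage markers, 1 (Cd68) reached a group mean of 1 CPM. Aif1, Cx3cr1, Itgam, Ptprc, C1qa, C1qb and Tyrobp had at most 1 count in any library. The summed level of this list was 2.17 to 2.61, 2.60 to 4.16 and 4.34 to 7.90 CPM in the 3 groups, and its part in the results below was not tested. Lymphocyte markers summed to at most 2.63 CPM. Markers of astrocytes summed to 2142 to 3037 CPM in untreated, 3196 to 4231 CPM in Fl/+ 4-OHT and 2585 to 5846 CPM in Fl/Fl 4-OHT cultures. Markers of neurons summed to 850 to 1132, 832 to 1027 and 564 to 825 CPM, lower in every Fl/Fl culture than in any Fl/+ culture. Most of this was Map2, with means of 892, 803 and 688 CPM, and the neuroblast gene Dcx had means of 39.2, 45.0 and 7.78 CPM. Tubb3, Rbfox3, Snap25 and Gad1 also had lower means in Fl/Fl than in untreated cultures. Syt1 (1.75, 2.28 and 2.18 CPM) and Stmn2 (0.127, 0.251 and 0.379 CPM) did not. Markers of fibroblasts and pericytes summed to 70.5 to 120, 122 to 217 and 93.1 to 156 CPM, most of it Cspg4, which oligodendrocyte precursors also express. Endothelial markers summed to 15.7 to 27.6, 23.6 to 66.8 and 26.0 to 54.6 CPM. Oligodendrocyte markers summed to 2478 to 3458, 2342 to 3319 and 2608 to 4540 CPM, and Mbp had means of 16.1, 119 and 294 CPM. The part of these lists in the results below was not tested either. In bulk RNA of this kind, fewer cells of a type and less RNA per cell cannot be told apart.

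**Figure D1:**
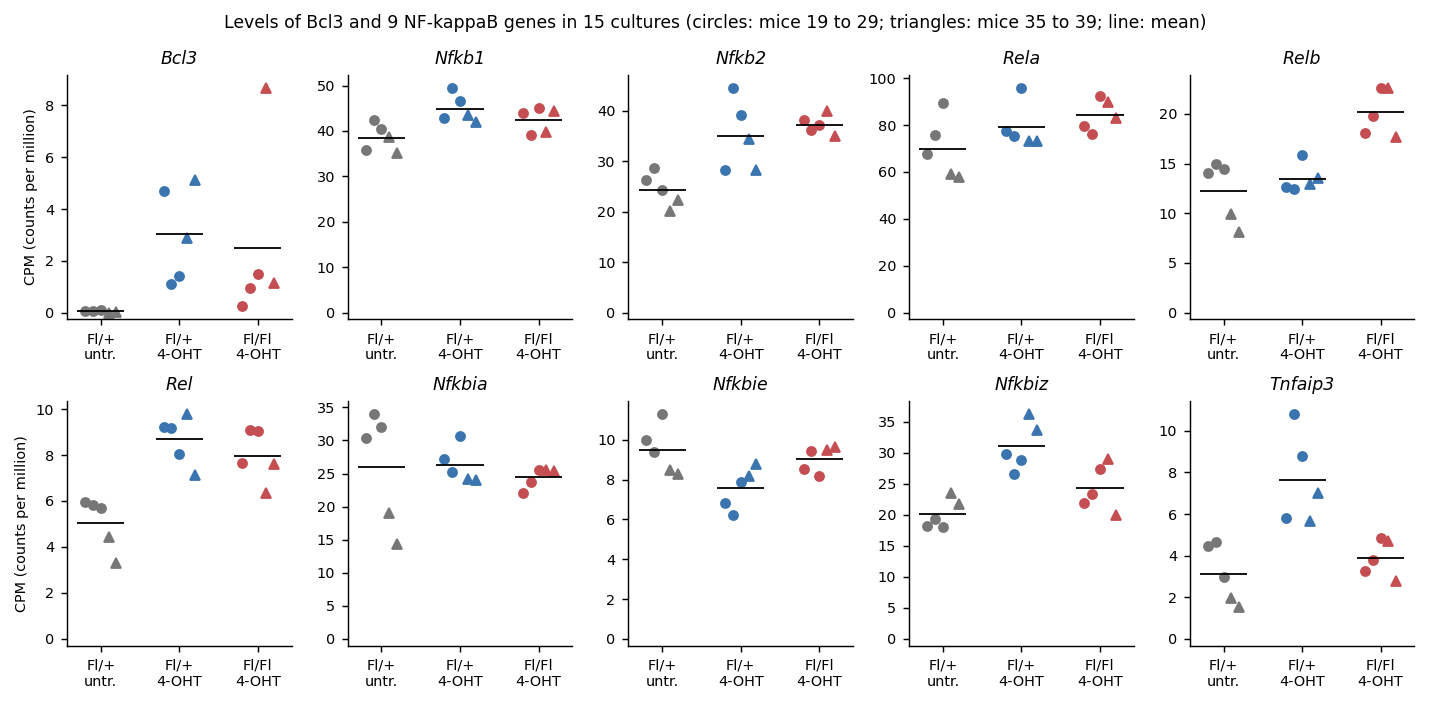
CPM of each of the 10 genes (y axis, from 0, own scale per panel) in the 15 cultures by group (x axis); each point is a culture and the line is the mean of 5. Bcl3 lies near 0 in all 5 untreated cultures and reaches 8.67 CPM in the Fl/Fl culture of mouse 37, Relb is higher in all 5 Fl/Fl than in all 5 Fl/+ 4-OHT cultures, and Tnfaip3 is lower in them.

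Compared per length of exon, the same genes led in each group. Rela had the highest level with a mean of 22.8 ± 4.24, 25.8 ± 3.09 and 27.4 ± 2.20 RPKM (CPM per kilobase of exon, SD, n = 5 each) in Fl/+ untreated, Fl/+ 4-OHT and Fl/Fl 4-OHT cultures. Nfkbia, the main cytoplasmic inhibitor of RELA, came second at 16.1 ± 5.40, 16.3 ± 1.71 and 15.2 ± 0.974 RPKM. Nfkb2, which encodes p100 and its product p52, followed at 5.31 ± 0.716, 7.61 ± 1.55 and 8.12 ± 0.413 RPKM. Rela and Nfkbia overlapped in their ranges in untreated cultures, though Rela was above Nfkbia in all 5 libraries, and did not overlap in either treated group. Nfkb1, Relb and Nfkbie overlapped in the untreated group, at 3.19 ± 0.251, 3.16 ± 0.788 and 3.12 ± 0.400 RPKM. In the Fl/Fl group Relb came next after Nfkb2, at 5.19 ± 0.606 RPKM, next to Nfkbiz at 4.84 ± 0.754, with which its range overlapped. The lowest levels were those of Rel, Tnfaip3 and Bcl3. Bcl3 was last in untreated cultures at 0.0227 ± 0.0160 RPKM and overlapped Rel and Tnfaip3 in both treated groups, at 1.23 ± 0.738 and 1.01 ± 1.41 RPKM.

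Bcl3 was close to absent without 4-OHT. The 5 untreated libraries held 2, 2, 3, 0 and 1 of its counts, all at or under the floor. The Fl/+ 4-OHT libraries of the same mice (19, 24, 26, 35 and 36) held 136, 35, 36, 83 and 143 counts, which is 4.68, 1.10, 1.43, 2.90 and 5.11 CPM. The Fl/Fl libraries of mice 27, 28, 29, 37 and 39 held 8, 28, 45, 224 and 33 counts, or 0.252, 0.946, 1.49, 8.67 and 1.15 CPM. No treated culture overlapped the untreated group, and within each treated group the cultures spread widely. Summed over a group and scaled for depth, Bcl3 was 52.9-fold higher in Fl/+ 4-OHT than in untreated cultures (433 against 8 counts, exact 95% interval 26.6 to 123) and 40.4-fold higher in Fl/Fl 4-OHT cultures (338 counts, 20.3 to 94.4). Without the Fl/Fl culture of mouse 37, left out after its counts were seen, the second ratio was 16.6 (114 counts, 8.13 to 39.3). These intervals cover counting error alone. The first of these ratios is of the contrast from which Bcl3 was chosen and is given as a description, without a test. The second shares the untreated libraries with it, and Bcl3 did not pass the filter on low counts there.

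The size of the Bcl3 difference between the treated groups turned on 1 culture. The Fl/Fl culture of mouse 37 held 66.3% of all Bcl3 counts of its group, 8.27 times the median level of the other 4. The Fl/Fl mean was 2.503 ± 3.48 CPM with it and 0.961 ± 0.524 CPM (SD, n = 4) without it, against 3.04 ± 1.83 CPM in Fl/+ 4-OHT cultures. The Fl/+ 4-OHT values are among those from which Bcl3 was chosen, which favours a high level in that group, so the difference is given as a description with no test. With all 10 libraries the Fl/Fl minus Fl/+ log2 fold change was -0.27 (SE 0.77). Without mouse 37 it was -1.65 (SE 0.55), and without mouse 27, the lowest Fl/Fl culture, it was 0.03. Within mice 19 to 29 the difference of means on log2(CPM + 0.5) was -0.96 and within mice 35 to 39 it was -0.17. The 2 treated groups overlapped.

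Mouse 37 also had the highest level of any culture for Lif, Osmr and Socs3, of the LIF and oncostatin M axis, whose receptors signal through JAK kinases and STAT3. Stat3 itself was at 515 CPM in mouse 37, below the 556 CPM of the Fl/+ 4-OHT culture of mouse 19. Lif, the cytokine itself, was at 0.331 to 1.81 CPM in untreated, 6.56 to 16.8 CPM in Fl/+ 4-OHT and 9.22 to 47.4 CPM in Fl/Fl 4-OHT cultures. Osmr, the oncostatin M receptor, ranged from 1.54 to 4.77, from 5.24 to 36.8 and from 14.9 to 98.1 CPM. Socs3, the feedback inhibitor of this axis, ranged from 3.74 to 9.51, from 10.3 to 32.2 and from 12.7 to 67.1 CPM. Gfap, the intermediate filament of astrocytes and adult neural stem cells, went from 14.3 to 106 CPM in untreated to 63.2 to 1295 CPM in Fl/+ 4-OHT cultures, and was highest in mouse 37 at 2267 CPM. The other 5 astrocyte markers varied. Aqp4 was also highest in mouse 37, at 547 CPM against 202 to 256 CPM in the other Fl/Fl cultures, with means of 338, 377 and 292 CPM in the 3 groups. Aldh1l1 and Slc1a2 were at 2066 and 934 CPM in mouse 37, above the other Fl/Fl cultures but not the highest of the 15, with means of 1480, 1796 and 1546 CPM and of 750, 820 and 768 CPM. S100b had means of 61.1, 16.6 and 21.9 CPM and Gjb6 of 1.92, 0.510 and 0.574 CPM, and both were higher in mouse 37 (31.7 and 0.890 CPM) than in the other Fl/Fl cultures. Among target genes of NF-kappaB, Lcn2, Icam1 and Nos2 were also highest in mouse 37. Lcn2 held 101 counts there and at most 4 in any other culture, and Icam1 and Nos2 were at 9.21 and 4.65 CPM. Ier3 (51.1 CPM in mouse 37), Irf1 (21.8 CPM) and Ccl2 (1.39 CPM) were higher in another culture. The part of all these genes in the Bcl3 level was not tested.

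**Figure D2:**
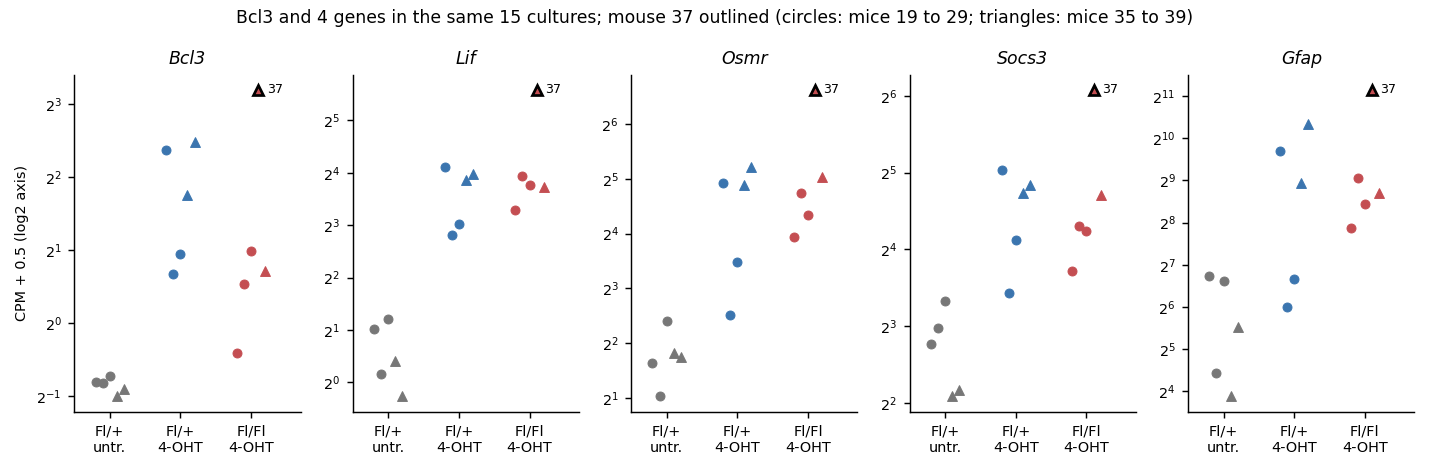
CPM + 0.5 (y axis, log2 scale) of Bcl3, Lif, Osmr, Socs3 and Gfap in the 15 cultures by group (x axis); each point is a culture. In each panel the outlined Fl/Fl culture of mouse 37 is the highest, at 8.67 CPM for Bcl3 and 2267 CPM for Gfap, and the untreated cultures are the lowest apart from Gfap, whose groups overlap.

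Of 13310 genes compared over the 15 libraries on log2(CPM + 0.5), those whose level followed Bcl3 most closely were Angptl2 (Pearson's r = 0.96), P2ry6 (0.95), Etv6 (0.95), Slc39a14 (0.94) and Gfra1 (0.94). The 15 libraries share the contrast between untreated and treated groups, so these values describe a shared pattern of groups as well as of cultures. Angptl2, a secreted angiopoietin-like protein, had means of 1.78, 23.7 and 23.9 CPM in the 3 groups. P2ry6, a nucleotide receptor, had means of 0.142, 3.54 and 3.26 CPM. Bcl3 lies on chromosome 7 (19808462 to 19822770, minus strand, GRCm38), 179 kb from Relb (19606217 to 19629438) on the same strand. Its nearest expressed neighbours did not follow it. Nectin2, a cell adhesion gene, had means of 42.0 ± 6.89, 44.9 ± 8.15 and 53.0 ± 5.93 CPM and passed the test in none of the 3 comparisons (edgeR adjusted p = 0.783, 0.148 and 0.0739). Bcam had means of 11.8 ± 4.18, 10.8 ± 1.39 and 9.70 ± 3.22 CPM (adjusted p = 0.672, 0.627 and 0.429). Cblc, Gm19345, Ceacam16 and Ceacam19 had at most 4 counts in any library.

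In the comparison of Fl/+ cultures with and without 4-OHT, 4 of the 10 genes passed an adjusted p of 0.05 and all 4 were higher, namely Bcl3, Rel, Nfkbiz and Tnfaip3. Of all 14821 genes tested, 13.8% passed, 7.34% higher and 6.45% lower. The groups did not overlap for the same 4 genes, against 11.9% of all genes. With mouse number as a block, which the shared mice allow, 5 of the 10 passed, Nfkb2 being the addition, and without the untreated culture of mouse 35, 2 passed. As Bcl3 was chosen from this contrast, nothing is read from these counts and single genes are described without a test. The median log2 fold change was 0.35 over the 10 genes and -0.01 over all genes.

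Nfkbiz was at 18.2, 19.3, 18.1, 23.5 and 21.8 CPM in the untreated cultures of mice 19, 24, 26, 35 and 36. With 4-OHT it was at 29.8, 26.6, 28.9, 36.2 and 33.7 CPM. It was higher in each mouse, by 0.45 to 0.70 on the log2(CPM + 0.5) scale, the most even difference of the 4 called genes. Tnfaip3 went from 4.48, 4.66, 2.995, 1.97 and 1.54 CPM to 5.82, 10.8, 8.81, 5.69 and 7.03 CPM. Its log2 fold change of 1.26 (SE 0.33) was the largest after Bcl3, with a spread from 0.34 to 1.88 between mice. Rel, the subunit best known from lymphocytes, went from 5.97, 5.83, 5.71, 4.43 and 3.31 CPM to 9.22, 9.20, 8.05, 9.77 and 7.14 CPM (log2 fold change 0.76, SE 0.19). Each of these 3 genes was higher with 4-OHT in 5 of 5 mice, as were Nfkb1 and Nfkb2. Nfkb1 had a small and even difference of 0.17 to 0.26 on the log2 scale, whereas Nfkb2 varied from 0.10 to 0.76. Rela was higher in 4 of 5 mice, Relb in 3, Nfkbia in 2 and Nfkbie in 1.

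The untreated cultures of mice 35 and 36 stood apart from those of mice 19, 24 and 26. Bcl3 was at or under the floor in both series. For 8 of the other 9 genes, all but Nfkb1, the ranges of the 2 series did not overlap, and the same held for 48.9% of 15309 genes tested in at least 1 comparison. Nfkbia was at 30.3, 33.9 and 32.1 CPM in mice 19, 24 and 26 and at 19.0 and 14.4 CPM in mice 35 and 36. After 4-OHT the same cultures lay together, at 27.1, 25.3, 30.6, 24.2 and 24.0 CPM. Nfkbia was therefore lower with 4-OHT in all 3 mice of the first series and higher in both of the second, beside a log2 fold change of -0.01 (SE 0.22) over all 5. Relb was at 14.0, 14.9 and 14.5 CPM against 9.95 and 8.12 CPM without 4-OHT and at 12.6, 12.5, 15.8, 12.9 and 13.6 CPM with it. Nfkbiz ran the other way, lower in mice 19, 24 and 26 than in mice 35 and 36, both without and with 4-OHT. In Fl/+ 4-OHT cultures the series did not overlap for 4 of the 10 genes (Rela, Nfkbia, Nfkbie and Nfkbiz), against 31.2% of all genes. In Fl/Fl 4-OHT cultures, with mice 27, 28 and 29 against 37 and 39, this held for 2 (Rel and Nfkbie), against 31.1% of all genes. The labels do not say what the mouse numbers stand for beyond the animal. By the labels, mice 19, 35 and 36 were male and mice 24 and 26 female. Of the Fl/Fl mice, 27, 28 and 29 were labelled male and 37 and 39 female. Within mice 35 to 39, Fl/Fl cultures labelled female are thus set against Fl/+ cultures labelled male, though the library of mouse 39 goes against its label. In the Fl/Fl group, labelled sex and mouse series go together.

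**Figure D3:**
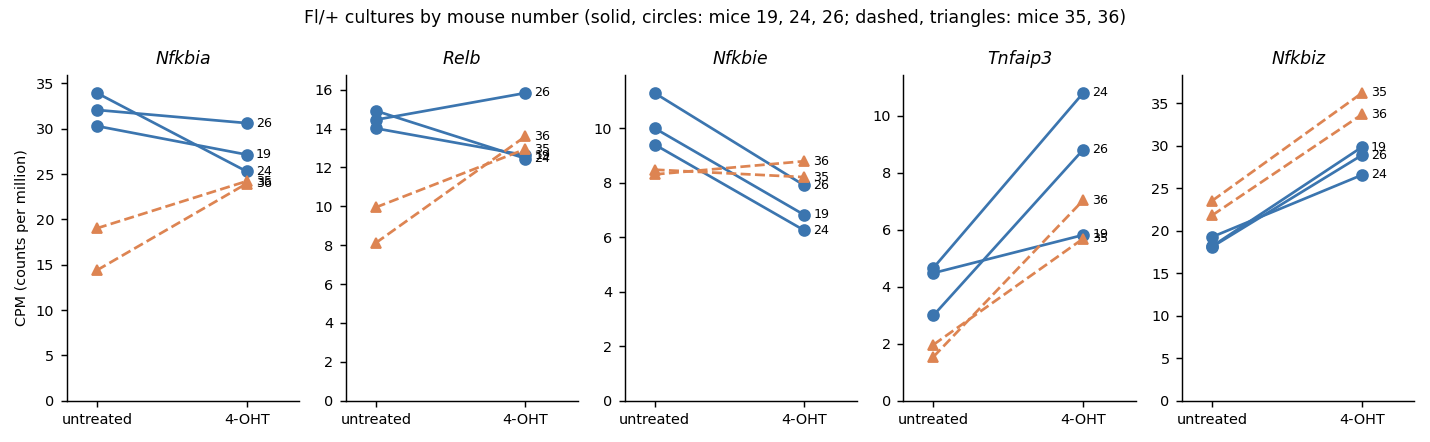
CPM (y axis, from 0) of 5 genes in the Fl/+ cultures of each mouse without and with 4-OHT (x axis); each line is a mouse, solid for 19, 24 and 26 and dashed for 35 and 36. The lines of Nfkbia converge from 14.4 to 33.9 CPM to 24.0 to 30.6 CPM, while all 5 lines of Tnfaip3 and Nfkbiz end higher than they begin.

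Deletion of the second Trrap copy was examined between Fl/Fl 4-OHT and Fl/+ 4-OHT cultures, which came from different mice and share the Fl/+ 4-OHT libraries with the contrast above. Without untreated Fl/Fl cultures, a difference already present between these mice cannot be told apart from the deletion. Here 2 of the 10 genes passed the test, Relb higher and Tnfaip3 lower, against 31.7% of all 15036 genes (16.8% higher, 15.0% lower). The groups did not overlap for the same 2 genes, against 22.7% of all genes. The median log2 fold change was -0.07 over the 10 genes and 0.02 over all genes. Without mouse 37, 4 of the 10 passed, Nfkbiz and Bcl3 being the additions, of which Bcl3 was chosen for its level in the Fl/+ 4-OHT libraries.

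Relb encodes the subunit that pairs with p52 in the alternative arm of the pathway. It was at 12.6, 12.5, 15.8, 12.9 and 13.6 CPM in Fl/+ 4-OHT cultures (mice 19, 24, 26, 35 and 36) and at 18.1, 19.8, 22.6, 22.6 and 17.7 CPM in Fl/Fl 4-OHT cultures (mice 27, 28, 29, 37 and 39). The lowest Fl/Fl culture lay above the highest Fl/+ culture. Relb rose by 0.60 on the log2 scale (SE 0.11, adjusted p = 0.00259, edgeR; exact permutation p = 0.00794, the smallest that 252 arrangements allow). The difference was 0.55 within mice 19 to 29 and 0.58 within mice 35 to 39. Without mouse 29, whose Trrap level overlapped the controls, it was 0.54 (adjusted p = 0.00855), without mouse 39 it was 0.63 (0.00376) and without mouse 36 it was 0.58 (0.00819). Nfkb2, the precursor of its partner p52, did not pass, with means of 34.9 ± 7.08 and 37.2 ± 1.89 CPM (difference 0.11 on the log2 scale, SE 0.13, adjusted p = 0.573).

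Tnfaip3 moved the other way. Its 5.82, 10.8, 8.81, 5.69 and 7.03 CPM in Fl/+ 4-OHT cultures compared with 3.27, 3.82, 4.85, 4.72 and 2.79 CPM in Fl/Fl 4-OHT cultures, and every Fl/Fl culture was below every Fl/+ culture. It fell by 0.96 on the log2 scale (SE 0.23, adjusted p = 0.00912, edgeR; exact permutation p = 0.00794). The difference was -0.98 within mice 19 to 29 and -0.72 within mice 35 to 39. Without mouse 29 it was -1.06 (adjusted p = 0.0114), without mouse 39 it was -0.87 (0.0212) and without mouse 36 it was -1.01 (0.0154). The Fl/Fl mean of 3.89 ± 0.895 CPM stood close to the untreated Fl/+ mean of 3.13 ± 1.42 CPM, and the ranges of these groups overlapped.

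Nfkbiz lay at the threshold. Its Fl/Fl 4-OHT cultures were at 21.8, 23.3, 27.5, 28.9 and 20.0 CPM, a mean of 24.3 ± 3.78 CPM against 31.0 ± 3.86 CPM in Fl/+ 4-OHT cultures, with overlap. Its fitted log2 difference was -0.34 (SE 0.12, adjusted p = 0.0551, edgeR; exact permutation p = 0.0476). Under 7 of the alternatives tried it passed, with adjusted p from 0.0239 to 0.0486. Nfkbie, at 7.59 ± 1.04 and 9.05 ± 0.644 CPM, had a log2 fold change of 0.27 (SE 0.12, adjusted p = 0.112). For Nfkb1, Rela, Rel and Nfkbia the log2 fold changes lay between -0.11 and 0.11, with SE from 0.08 to 0.14, and none passed.

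**Figure D4:**
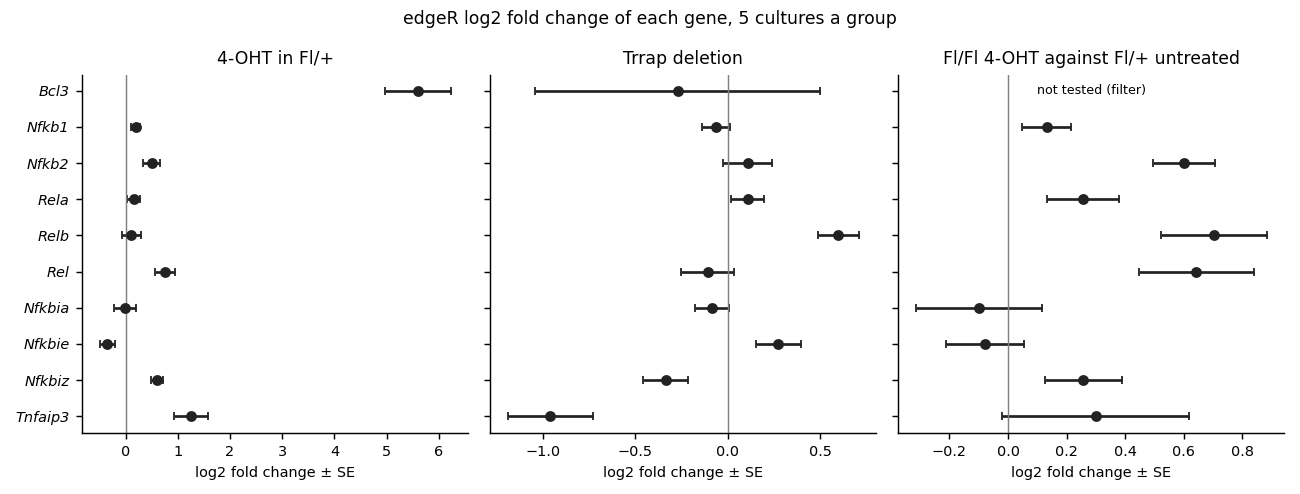
edgeR log2 fold change with its SE (x axis, own scale per panel, second group minus first) for the 10 genes (y axis) in the 3 comparisons, 5 cultures a group. Relb at 0.60 and Tnfaip3 at -0.96 passed the test for Trrap deletion, and Bcl3 has the widest error bar there, with an SE of 0.77.

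Fl/Fl 4-OHT cultures were also set against untreated Fl/+ cultures, which differ in treatment, genotype and mouse, and whose libraries appear in the comparisons above. Of the 9 genes that passed the filter, 3 passed the test and all were higher, namely the subunits Nfkb2, Relb and Rel. Of all 15032 genes 30.7% passed, 15.7% higher and 15.1% lower. The groups did not overlap for the same 3 genes, against 22.9% of all genes, and neither did they for Bcl3, which the filter removed. The median log2 fold change was 0.26 over the 9 genes and 0.00 over all genes.

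Nfkb2 was at 26.2, 28.6, 24.3, 20.2 and 22.4 CPM in untreated and at 38.1, 36.2, 37.1, 39.9 and 34.9 CPM in Fl/Fl 4-OHT cultures, where its coefficient of variation of 5.08% was the smallest of the 10 genes. It rose by 0.60 on the log2 scale (SE 0.11, adjusted p = 0.00189, edgeR). In Fl/+ 4-OHT cultures it was at 28.1, 44.5, 39.2, 34.4 and 28.2 CPM, a far wider spread. Relb rose by 0.70 (SE 0.18, adjusted p = 0.0134), by 0.46 within mice 19 to 29 and by 1.11 within mice 35 to 39. Rel rose by 0.64 (SE 0.20, adjusted p = 0.0283), from the untreated values above to 7.65, 9.09, 9.06, 6.35 and 7.60 CPM. The Rel call was lost without the untreated culture of mouse 35 or the Fl/Fl culture of mouse 28 or 29, with adjusted p from 0.0575 to 0.0687. Rela, at 69.9 ± 13.0 and 84.2 ± 6.76 CPM, did not pass (0.26 on the log2 scale, SE 0.12, adjusted p = 0.134), but passed without the untreated culture of mouse 26 (0.36, adjusted p = 0.0290) and with scaling by library size alone (0.35, adjusted p = 0.0483). Nfkbia and Nfkbie had log2 fold changes of -0.10 and -0.08 (SE 0.21 and 0.13, adjusted p = 0.761 and 0.687). Tnfaip3 had one of 0.30 (SE 0.32, adjusted p = 0.514), at -0.02 within mice 19 to 29 and 0.89 within mice 35 to 39.

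Genes most like Nfkb2 over the 15 libraries, among 13309 compared, included 3110040N11Rik (r = 0.94), Creld1 (0.93), Pml (0.92) and Alkbh5 (0.92). Pml, the scaffold of nuclear bodies, had means of 21.1, 33.3 and 42.3 CPM in the 3 groups. Those most like Nfkbia were Spata7 (0.90), Asl (0.90), Pld2 (0.89), Trappc6a (0.89) and Txnip (0.88). Each of these genes other than 3110040N11Rik was higher in the untreated cultures of mice 19, 24 and 26 than in those of mice 35 and 36, as Nfkb2 and Nfkbia were, for example Asl at 21.4 to 23.3 against 10.1 to 11.3 CPM, so the points are not independent.

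Around the 10 genes, 125 further genes of the pathway were listed by role, of which 101 or 102 passed the filter in each comparison. With 4-OHT in Fl/+ cultures 17 were higher and 7 lower of 101 (20 and 4 with scaling by library size alone), with Trrap deletion 19 were higher and 10 lower of 102 (24 and 8 with that scaling, 13 and 9 with all 15 libraries in 1 fit), and between Fl/Fl 4-OHT and untreated cultures 30 were higher and 9 lower of 101 (36 and 6 with that scaling). Higher calls thus made up 16.8%, 18.6% and 29.7% of the list, beside 7.34%, 16.8% and 15.7% of all genes. Lower calls made up 6.93%, 9.80% and 8.91% of the list, beside 6.45%, 15.0% and 15.1% of all genes. With mouse number as a block, the 4-OHT comparison gave 24 higher and 9 lower calls of the list. Calls over all 14821 genes also went up, from 2044 to 3809. The 3 comparisons share libraries and are given side by side. Single cultures moved these counts. With 4-OHT, leaving out 1 culture gave 11 to 17 higher and 1 to 7 lower calls, with 11 higher without the untreated culture of mouse 35 or the 4-OHT culture of mouse 35 or 36, and 1 lower without the 4-OHT culture of mouse 19 or 35. The lower calls numbered 4 or fewer in 8 of those 10 fits, all but those without the untreated culture of mouse 24 or 36. With Trrap deletion the same gave 11 to 16 higher and 8 to 11 lower calls, with 11 higher without the Fl/+ culture of mouse 19 and 12 without the Fl/Fl culture of mouse 28 or 39, and 12 without a filter on low counts. Between Fl/Fl 4-OHT and untreated cultures it gave 29 to 34 higher and 7 to 11 lower calls. Of the higher calls, 5, 2 and 10 were of genes that reached the cutoff of the filter in fewer than 5 libraries of the lower group, and so were tested only because of the group where they are high. The same held for 150, 247 and 392 of the 1088, 2520 and 2357 higher calls over all genes. Genes in this position are given by their counts, without a test.

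Among ligands and receptors, most cytokines that start the pathway were not detected at a level that could be tested. Tnf, Il1b and Il6 were among the 9 or 10 of 14 ligands that failed the filter. Lif held 43, 18, 52, 22 and 9 counts in untreated and 193 to 489 in Fl/+ 4-OHT cultures, or 1.02 ± 0.624 and 12.0 ± 4.63 CPM, with no overlap, and is described without a test there. It did not pass for Trrap deletion (0.71 on the log2 scale, SE 0.44, adjusted p = 0.241, edgeR). Il33, a nuclear cytokine, fell by 1.11 with 4-OHT in Fl/+ cultures (SE 0.29, adjusted p = 0.0295), a call that 7 of 19 alternatives lost. Tnfrsf1a, the TNF receptor found on most cells, rose by 0.29 with 4-OHT (SE 0.09, adjusted p = 0.0477, lost in 11 of 19 alternatives) and by 0.58 between untreated and Fl/Fl cultures (SE 0.11, adjusted p = 0.00341). With Trrap deletion Tnfrsf12a, the receptor of TWEAK, was higher by 0.78 (SE 0.17, adjusted p = 0.00674). Tlr3, the sensor of double-stranded RNA, was higher by 0.69 (SE 0.18, adjusted p = 0.0156), and Ltbr, the lymphotoxin receptor, by 0.32 (SE 0.08, adjusted p = 0.0135). Ltbr had fallen by 0.33 with 4-OHT in Fl/+ cultures (SE 0.08, adjusted p = 0.0254, lost in 4 of 19 alternatives), and was at 78.1 ± 7.58, 63.0 ± 3.91 and 77.7 ± 8.18 CPM in the 3 groups.

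Of 17 adaptors and ubiquitin ligases tested, 4 passed as higher with 4-OHT and none as lower. Traf1, a TNF receptor adaptor, is 1 of the 4, and with 2 to 7 counts in untreated and 17 to 45 in Fl/+ 4-OHT cultures it was tested only because of the treated group. The other 3 were 17.6% of the list, against 6.33% of all genes counted without such calls. Card10, the scaffold that joins receptors to BCL10 and MALT1 outside the lymphocyte lineage, rose from 1.498 ± 0.349 to 7.13 ± 2.13 CPM (2.22 on the log2 scale, SE 0.25, adjusted p = 0.000541) and stood at 6.48 ± 1.38 CPM in Fl/Fl cultures. Malt1 rose by 0.76 (SE 0.19, adjusted p = 0.0262, lost in 5 of 19 alternatives) and Irak4, a kinase of the interleukin 1 and Toll-like receptors, by 0.64 (SE 0.13, adjusted p = 0.00909). With Trrap deletion 3 of 18 rose, which at 16.7% is the share of all genes (16.8%). Irak1, the partner of Irak4, fell by 0.32, from 105 ± 4.16 to 83.4 ± 2.01 CPM (SE 0.05, adjusted p = 0.00164). Of 11 kinases, Map3k8 rose by 1.06 with 4-OHT (SE 0.27, adjusted p = 0.0265) and Tab1 fell by 0.45 (SE 0.14, adjusted p = 0.0498), calls lost in 4 and 10 of 19 alternatives. For Trrap deletion Ikbkg, the regulatory subunit of the IkB kinase, rose by 0.21 (SE 0.06, adjusted p = 0.0275). Map3k14, the kinase of the alternative arm that processes p100, fell by 0.40 (SE 0.13, adjusted p = 0.0408), and these calls were lost in 9 and 11 of 18 alternatives. The catalytic subunits Chuk and Ikbkb passed in none of the 3 comparisons.

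The list of other IkB proteins and feedback genes had 2 lower and no higher calls of 14 with 4-OHT (14.3% lower, against 6.45% of all genes). They had 4 higher and no lower with Trrap deletion (28.6%, against 16.8%) and 3 higher and no lower between Fl/Fl and untreated cultures, of which Nlrc5 was tested only because of the Fl/Fl group. The other 2 were 14.3% of the list, against 13.1% of all genes counted without such calls. Of the 4 with Trrap deletion, Rnf11 (0.36, adjusted p = 0.0404) and Cyld (0.33, adjusted p = 0.0427), which both restrain the pathway through ubiquitin, lost their call in 9 and 12 of 18 alternatives, and Tnip1 and Otulin in none. Tnip1, whose product ABIN1 works together with A20, rose with Trrap deletion from 27.0 ± 2.64 to 47.5 ± 3.48 CPM (0.83 on the log2 scale, SE 0.09, adjusted p = 0.000153) while Tnfaip3 itself fell. Tnip1 was at 23.0 to 33.0 CPM in untreated, 23.8 to 29.4 CPM in Fl/+ 4-OHT and 43.9 to 53.1 CPM in Fl/Fl 4-OHT cultures, so that the Fl/Fl group overlapped neither of the others. Otulin, which removes linear ubiquitin chains, fell by 0.35 with 4-OHT (SE 0.10, adjusted p = 0.0422, lost in 10 of 19 alternatives) and rose by 0.35 with Trrap deletion (SE 0.08, adjusted p = 0.00900).

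Of 19 target genes tested among 30 listed, 3 passed as higher and 1 as lower with 4-OHT, 6 and 1 with Trrap deletion, and 8 and 2 between untreated and Fl/Fl cultures. The lower calls were 5.26%, 5.26% and 10.5% of the list, against 6.45%, 15.0% and 15.1% of all genes. Of the higher ones, 1 (Icam1), 2 (Nos2 and C3) and 4 (Ccl2, Cxcl10, Icam1 and Nos2) were tested only because of the group where they are high. The others numbered 2, 4 and 4, or 10.5%, 21.1% and 21.1% of the list, against 6.33%, 15.1% and 13.1% of all genes counted the same way. Icam1, an adhesion molecule, held 11, 7, 3, 25 and 12 counts in untreated and 61 to 160 in Fl/+ 4-OHT cultures, or 0.424 ± 0.320 and 3.26 ± 1.54 CPM, and is described without a test since only the treated group brought it past the filter. Ier3, an immediate early gene, rose with 4-OHT from 14.6 ± 5.90 to 60.8 ± 23.3 CPM (2.04, SE 0.32, adjusted p = 0.00240). Vcam1, the adhesion molecule that holds neural stem cells in their niche, fell by 1.07, from 180 ± 22.4 to 87.0 ± 29.2 CPM (SE 0.21, adjusted p = 0.00784). With Trrap deletion Irf1, an interferon regulatory factor, rose by 0.55 (SE 0.11, adjusted p = 0.00316) to 20.6 to 22.5 CPM in the 5 Fl/Fl cultures, above all Fl/+ 4-OHT cultures. Nos2, the inducible nitric oxide synthase, held 16, 16, 9, 19 and 22 counts in Fl/+ 4-OHT and 18, 51, 62, 120 and 31 in Fl/Fl 4-OHT cultures, which overlapped, and is likewise given without a test. Ccnd1, a cyclin gene on which BCL3 and p52 are known to act, rose by 0.57 (SE 0.14, adjusted p = 0.0117, lost with all 15 libraries in 1 fit). In Fl/Fl 4-OHT cultures Icam1 held 109 to 238 counts, or 5.18 ± 2.37 CPM. Ccl2, a chemokine, held 8 to 30 counts in untreated and 36 to 101 in Fl/Fl 4-OHT cultures, or 0.698 ± 0.379 and 1.95 ± 0.887 CPM, and is given without a test for the same reason.

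Partners and regulators of BCL3, all 22 of which were tested, had 4 higher and 1 lower calls with 4-OHT (18.2% and 4.55%, against 7.34% and 6.45% of all genes). With Trrap deletion 1 was higher and 7 were lower (4.55% and 31.8%, against 16.8% and 15.0%). Between Fl/Fl 4-OHT and untreated cultures 6 were higher and 5 lower (27.3% and 22.7%, against 15.7% and 15.1%). With 4-OHT Osmr rose by 2.89 (SE 0.50, adjusted p = 0.00424), Socs3 by 1.85 (SE 0.34, adjusted p = 0.00548) and Stat3 by 0.64 (SE 0.12, adjusted p = 0.00633), the last from 317 ± 53.9 to 504 ± 38.1 CPM. The 1 lower call was Lifr, the LIF receptor, named after its values were seen. It was at 70.6 ± 18.1, 48.4 ± 3.85 and 42.3 ± 3.62 CPM in the 3 groups. It fell by 0.57 with 4-OHT (SE 0.16, adjusted p = 0.0364, edgeR), a call that 7 of 19 alternatives lost, all of them leaving out 1 culture (untreated 35 or 36 or any of the 5 treated, adjusted p from 0.0589 to 0.102). Against untreated cultures it fell by 0.75 in Fl/Fl cultures (SE 0.16, adjusted p = 0.00467), a call that held in all 18 alternatives. With Trrap deletion Gsk3b, the kinase that marks BCL3 for degradation, fell by 0.54 (SE 0.05, adjusted p = 0.000108), from 214 ± 6.23 to 145 ± 2.76 CPM. Jak2 fell by 0.51 (SE 0.07, adjusted p = 0.000416) and Ctbp2, a corepressor, by 0.37 (SE 0.07, adjusted p = 0.00342). Il6st, the receptor chain gp130 shared by the LIF and oncostatin M receptors, rose by 0.52 (SE 0.13, adjusted p = 0.0113). The calls of Osmr, Socs3, Stat3, Gsk3b, Jak2, Ctbp2 and Il6st held in every alternative in which they were tested.

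**Figure D5:**
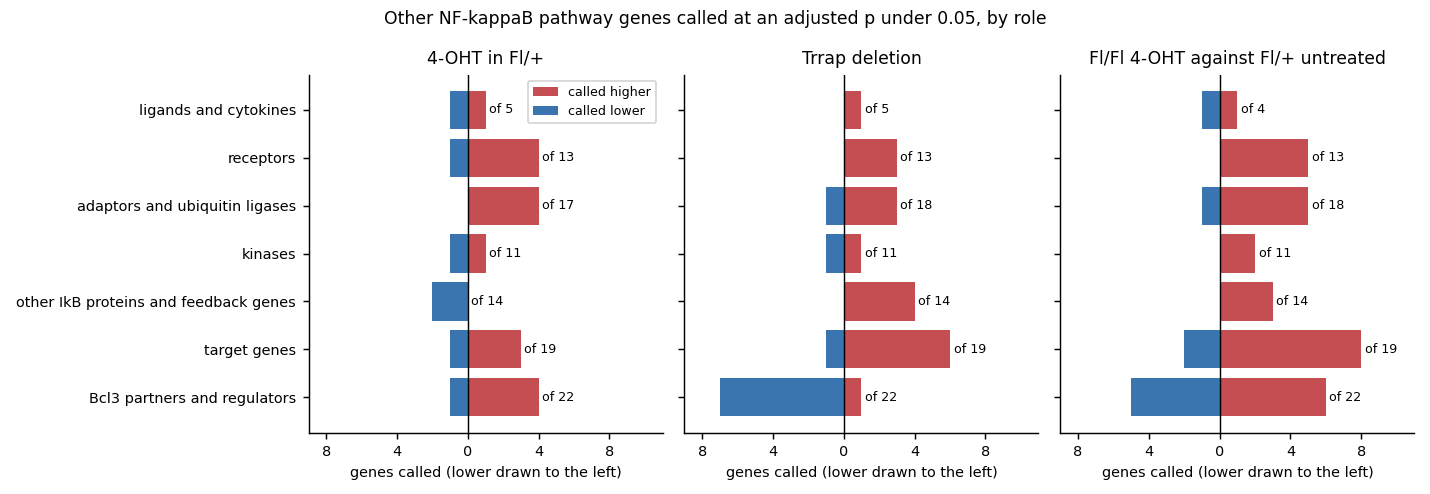
Number of genes called higher (right of 0) and lower (left of 0) at an adjusted p under 0.05 (x axis) in each role list of the pathway (y axis) for the 3 comparisons, with the number tested beside each bar. Target genes have 8 of 19 called higher between Fl/Fl 4-OHT and untreated cultures (42.1%, against 15.7% of all genes). Of these 8, 4 were tested only because of the Fl/Fl group, and the other 4 are 21.1%, against 13.1% of all genes counted the same way. Partners and regulators of BCL3 have 7 of 22 called lower with Trrap deletion (31.8%, against 15.0% of all genes).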

How the data were processed

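Poly(A) RNA of the 15 cultures was sequenced by the authors from stranded single-end libraries. The reads were mapped to GRCm38 with STAR 2.5.4b and assigned to Ensembl genes with featureCounts 1.5.0, with bcl2fastq 1.8.4 before. What the authors deposited is a table of unnormalised counts, and its 15 columns were all used. Reads without molecular identifiers include PCR copies, so floors and intervals cover counting error only. Gene IDs were matched to GENCODE M21 (53706 of 53801).

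Each comparison was fitted on its own 10 libraries with the quasi-likelihood F test of edgeR 4.0.16 in R 4.3.3 (filterByExpr with a minimum count of 10, TMM scaling, no covariate, Benjamini-Hochberg adjustment over all genes tested, threshold 0.05). Exact permutation tests were two-sided on log2(CPM + 0.5). The steps were tested on simulated data. DESeq2 1.42.0 was an alternative. The labels and the methods give the 4-OHT exposure differently, so no dose is given. The number in a label was taken as the animal, and p-values measure the spread between animals of a group. In Fl/+ mice, same-mouse cultures deviated together (r = 0.153 to 0.634 over 14821 genes; different mice, -0.559 to 0.349). The genes described and all lists were chosen with earlier results of these data known. Pathway genes are named where they were among the 4 largest called changes of a list with a mean of at least 1 CPM. Likeness was Pearson's r of log2(CPM + 0.5) over genes averaging 1 CPM or more, and the 3 nearest protein-coding genes on each side of Bcl3 are given. Gfap, Lcn2, Lifr, Traf1, Cxcl10, Chuk, Ikbkb, Tnf, Il1b, Il6 and the single markers of neurons and oligodendrocytes were named after their values were seen. Not every gene that these rules give is reported here.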

Additional observations from a re-analysis of the deposited data

Results flagged for a closer look

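Of 30 sets of 5 values (10 genes in 3 groups), 2 held a culture far from the other 4 by Dixon's test, and chance alone gives about 1 in 20. The Fl/Fl 4-OHT culture of mouse 37 had 8.67 CPM of Bcl3, and the other 4 had 0.252 to 1.49 CPM. The Fl/+ 4-OHT culture of mouse 26 had 95.8 CPM of Rela, and the other 4 had 73.4 to 77.6 CPM.

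Nfkbia differed in opposite directions between the mouse series with 4-OHT in Fl/+ cultures. Its mean difference on log2(CPM + 0.5) was -0.21 in mice 19, 24 and 26, lower in 3 of 3, and 0.53 in mice 35 and 36, higher in 2 of 2. The difference between the series was not tested.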

How the results depend on the processing

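With Trrap deletion, the calls of Relb (0.54 to 0.65) and Tnfaip3 (-1.06 to -0.80) held under every alternative with a test, the ranges being those of leaving out 1 culture. With 4-OHT, leaving out 1 culture gave 2 to 5 genes called of the 10 and 12 to 24 of the pathway list. For Trrap deletion the same gave 2 to 4 and 20 to 27, and for Fl/Fl 4-OHT against untreated cultures 2 to 5 (5 without the untreated culture of mouse 26) and 36 to 44. Some genes that were not called changed direction, among them Bcl3 for Trrap deletion (-1.65 without mouse 37 to 0.026 without mouse 27), and against untreated cultures Nfkbie (0.011 with library size alone) and Nfkbia (-0.25 without the untreated culture of mouse 36 to 0.016 without that of mouse 24), and with 4-OHT Nfkbia (-0.01 with all cultures, -0.16 to 0.11 leaving out 1, 0.043 with library size alone and 0.056 with the replicate block) and Relb (-0.01 without the untreated culture of mouse 36). Within 1 mouse series, Nfkbia, Nfkbie, Relb, Rela and Tnfaip3 also had the other sign in at least 1 comparison. The cause was not tested.

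With mouse number as a replicate block, 4-OHT in Fl/+ cultures gave 5 of the 10 genes called, 33 of the pathway list and 3809 of all genes, against 4, 24 and 2044 without it. Of the pathway genes that the naming rule picks, not all of which the text describes, 9 of 21, 12 of 22 and 20 of 22 in the 3 comparisons kept their call in every alternative in which they were tested, and none changed direction. The covariate of labelled sex rests on a label that the library of mouse 39 goes against. Bcl3 in untreated cultures lies at the floor, so that a lower level could not be seen.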
